A study of Mus musculus with 8 samples.

Results

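The miR-142 hairpin is a small RNA precursor that gives both a 3p and a 5p mature miRNA, and this account follows those 2 arms through 8 small RNA libraries of mouse CD8+ T cells. The members are the table entries named mmu-miR-142a-3p and mmu-miR-142a-5p, chosen by name, 2 of the 1978 distinct mature names deposited. Each stood in 1 row of the table. Both passed the filter on low counts that left 382 miRNAs for testing.

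The cells were CD8+ T cells sorted from spleen on CD44 and CD122, and the sample titles cross a genotype, mCre or WT, with a subset, MP or TN. Each of the 4 groups, mCre MP, mCre TN, WT MP and WT TN, held 2 libraries. miR-29 and Cre are both named in the title of the series, Cre being a recombinase used to delete marked sequences. The sources used here do not name the deleted sequence, the promoter that drives Cre or the strain, and they say of age only that spleens were adult or neonatal, not which sample was which. The design text writes VM where the titles write MP. The usual readings are true naive for TN and virtual memory for VM, a state with memory markers in cells that have not met antigen. Since no label assigns the libraries of a group to separate mice, the p-values reflect spread between libraries that could be technical.

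A miRNA hairpin is cut by Drosha and Dicer into a short duplex, and one strand of that duplex is loaded into an Argonaute protein, where bases 2 to 8, the seed, pair with target mRNAs. In most hairpins one strand, the guide, is kept and its partner, the passenger, is discarded. miR-142 is a marker of blood cells, is transcribed in nearly all haematopoietic lineages, and is known for functional products from both arms. Mice without it have defects in T cells, natural killer cells, dendritic cells and platelets. In T cells miR-142-3p is known to repress adenylyl cyclase 9 and so to limit cyclic AMP.

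The mature sequences are shown first because the arms carry different seeds, so a change in the balance of the arms would be a change in the set of possible targets. Seeds are in capitals, 5′ to 3′, as RefSeq gives them for GRCm38.p6. The third sequence is the product annotated on the opposite strand.
miR-142a-3p: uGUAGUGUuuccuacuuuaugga
miR-142a-5p: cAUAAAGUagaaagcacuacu
miR-142b: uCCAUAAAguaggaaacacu

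The 64-base hairpin itself, Mir142, holds the 5p arm at bases 4 to 24 and the 3p arm at bases 40 to 62, both in capitals here.
Mir142: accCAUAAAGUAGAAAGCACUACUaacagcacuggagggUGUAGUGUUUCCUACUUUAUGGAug

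Predicted folding with RNAfold gave a minimum free energy of -26.9 kcal/mol, with 19 of the 21 bases of the 5p arm paired to the 3p arm. The 5p arm starts with C and the 3p arm with U. Both arms are rich in A and U, with a GC content of 34.8% for the 3p arm and 33.3% for the 5p arm, against a median of 47.8% over the 308 tested miRNAs with a RefSeq sequence. No other of the 1679 mature names in the RefSeq table had the seed GUAGUGU or the seed AUAAAGU, so neither arm shared its seed with another miRNA searched.

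Mir142 lies at chr11:87756864-87756927 on the plus strand (GRCm38). By GENCODE it sits in intron 1 (87755614 to 87757038) of Mir142hg, a long noncoding host gene of 2 exons on the same strand. The 3p arm spans 87756903 to 87756925 and the 5p arm 87756867 to 87756887. The protein-coding gene Tspoap1 starts within 10000 bases, at 87760541. On the minus strand the same bases carry Mir142b (87756841 to 87756955), whose mature miR-142b is the reverse complement of the 3p arm over all 20 of its bases and shares a run of 10 bases with the 5p arm.

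Some libraries stood apart before miR-142 was considered. miR-29a-3p, a form of the miRNA named in the series title, took 0.0734% and 0.126% of counts in mCre MP, 0.162% and 1.52% in mCre TN, 0.349% and 1.09% in WT MP, and 0.340% and 0.0735% in WT TN (replicates 1 and 2 each time). The TN replicate 2 libraries thus ran against labels that would put less miR-29 in mCre, and directions below that use the libraries labelled mCre TN replicate 2 and WT TN replicate 2 rest on those labels. On the first principal component, 51.7% of the variance of log2 CPM over the 382 miRNAs, both mCre MP libraries (24.8 and 11.04) and the library labelled WT TN replicate 2 (15.3) lay on one side and the other 5 (-19.8 to -4.00) on the other. The let-7 family took 64.0% and 60.1% of counts in mCre MP and 69.4% in that WT TN library, against 43.4% to 52.1% in the other 5. Totals ran from 1936597 to 5230976 counts. Of the miRNAs that mark other cells, the myeloid pair miR-223-3p and miR-223-5p summed to 1.40 to 13.7 CPM of all counts, the 4 erythroid ones to 43.6 to 138.3 CPM, the 4 endothelial and stromal ones to 22.2 to 109.2 CPM and the 6 epithelial ones to 724.5 to 3062 CPM. Most of the erythroid sum was miR-486a-5p (147 to 293 counts), while miR-144-3p had at most 1 count in any library and miR-451a at most 33. Most of the epithelial sum was miR-200a-3p, miR-200b-3p (718 to 6590 counts) and miR-200c-3p. Of the others, miR-429-3p had at most 167 counts, miR-141-3p at most 40 and miR-205-5p at most 16. The lymphocyte pair miR-150-5p and miR-342-3p summed to 39160 and 62060 CPM in mCre MP and 42970 CPM in the library labelled WT TN replicate 2, against 65220 to 159000 CPM in the other 5.

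The 3p arm was a moderately abundant miRNA in every library. miR-142a-3p had 1167 and 2646 counts in mCre MP, 9462 and 3595 in mCre TN, 7209 and 5866 in WT MP, and 9932 and 1668 in WT TN. After TMM scaling for library composition this was 618.1 and 1031 CPM in mCre MP, 1572 and 1246 CPM in mCre TN, 1948 and 1599 CPM in WT MP, and 2660 and 939.5 CPM in WT TN. The lowest values were those of mCre MP replicate 1 and of the library labelled WT TN replicate 2, and the WT TN pair spanned nearly the whole range by itself. In sorted bulk samples, fewer cells of a type and less RNA per cell cannot be told apart. By counts the arm ranked between 36 and 66 among all mature names of a library.

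The 5p arm swung much more. miR-142a-5p had 1062 and 1995 counts in mCre MP, 9642 and 13952 in mCre TN, 7826 and 8574 in WT MP, and 21814 and 934 in WT TN. Its level was 562.5 and 777.1 CPM in mCre MP, 1602 and 4836 CPM in mCre TN, 2115 and 2337 CPM in WT MP, and 5841 and 526.1 CPM in WT TN. The 3 lowest values were those of both mCre MP libraries and the library labelled WT TN replicate 2, apart from the other 5. The highest library exceeded the lowest 11.1-fold for the 5p arm and 4.30-fold for the 3p arm. Across libraries the SD of log2 CPM was 1.33 for the 5p arm, larger than that of 77.7% of the 382 miRNAs tested, and 0.66 for the 3p arm, larger than that of 22.8%; the median miRNA had 0.98.

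**Figure D1:**
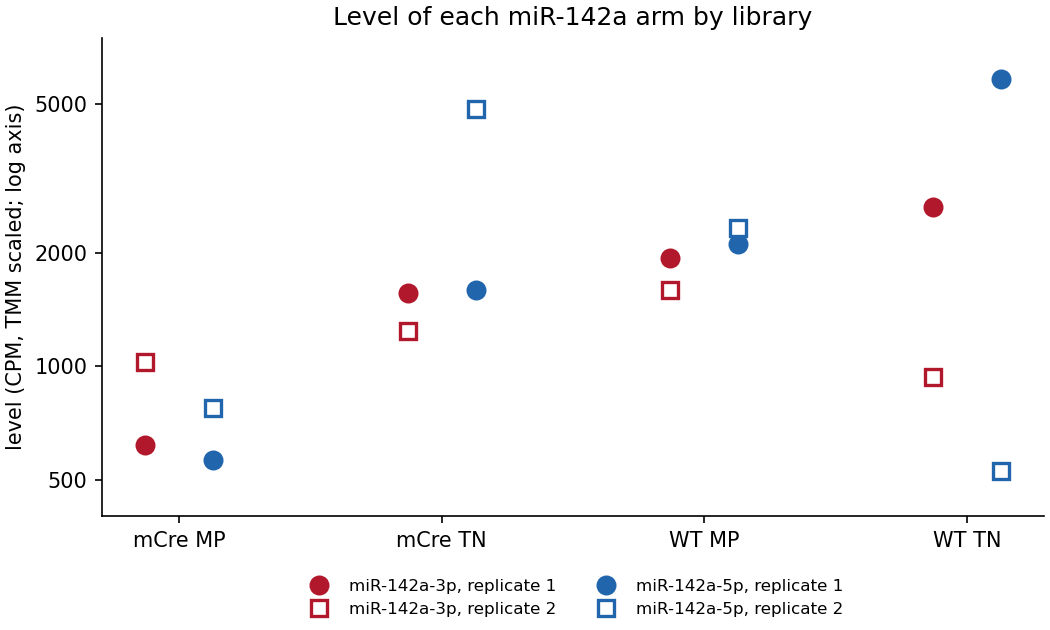
Level of miR-142a-3p (red) and miR-142a-5p (blue) in each library, in TMM-scaled CPM on a log axis; filled circles are replicate 1 and open squares replicate 2, with 2 libraries per group. The 5p arm runs from 526.1 to 5841 CPM and the 3p arm from 618.1 to 2660 CPM, and the WT TN libraries hold the highest value of both arms and the lowest of the 5p arm.

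Ordered by group mean, the 3p arm was lowest in mCre MP (824.4 ± 291.8 CPM), then mCre TN (1409 ± 230.4 CPM), WT MP (1773 ± 246.9 CPM) and WT TN (1800 ± 1216 CPM; SD, n = 2 each). The steps up to WT MP exceeded the SDs of their groups, and the last pair of neighbours, WT MP and WT TN, differed by less than either SD. For the 5p arm the order was mCre MP (669.8 ± 151.8 CPM), WT MP (2226 ± 157.1 CPM), WT TN (3184 ± 3758 CPM) and mCre TN (3219 ± 2287 CPM; SD, n = 2 each). Only the step between mCre MP and WT MP exceeded the SD of both its groups, and the next steps lay inside the spread of the TN libraries.

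Because both arms are cut from one precursor and counted in one library, their ratio needs no library scaling. The 3p arm made up 52.4% and 57.0% of the counts of both arms in mCre MP, 49.5% and 20.5% in mCre TN, 48.0% and 40.6% in WT MP, and 31.3% and 64.1% in WT TN. The 95% Wilson interval ran from 50.3% to 54.4% in the shallowest case, mCre MP replicate 1 with 2229 counts of both arms, nearly as wide as the distance to replicate 2 at 57.0%. The replicates lay much farther apart in the TN groups, and in WT TN the intervals were 30.8% to 31.8% and 62.2% to 65.9%. The intervals cover counting error only, and the arms' ratio in reads is not calibrated to molecules.

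**Figure D2:**
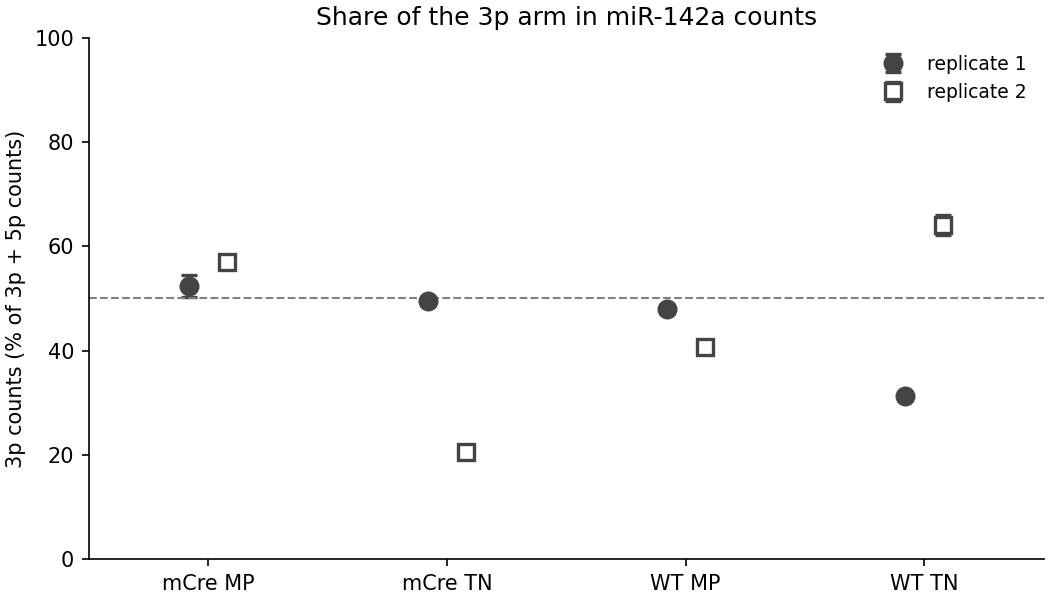
Share of miR-142a-3p in the counts of both arms, in percent, for each library, with 95% Wilson intervals as bars (counting error only) and the dashed line at equal arms. The shares run from 20.5% in the library labelled mCre TN replicate 2 to 64.1% in the library labelled WT TN replicate 2, while the 4 MP libraries lie between 40.6% and 57.0%.

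The larger arm was not the same in all libraries. The 3p arm exceeded the 5p arm in both mCre MP libraries (1.10 and 1.33 times) and in the library labelled WT TN replicate 2 (1.79 times). The 5p arm was larger in the other 5, by 1.02 times in mCre TN replicate 1, 3.88 times in the library labelled mCre TN replicate 2, 1.09 and 1.46 times in the WT MP libraries, and 2.20 times in WT TN replicate 1. The libraries with the least miR-142 thus held the highest shares of 3p. Summed over both arms the level was 1181 CPM in mCre MP replicate 1, 1466 CPM in the library labelled WT TN replicate 2 and 1808 CPM in mCre MP replicate 2, the 3 libraries where 3p led. The highest sums, 8501 CPM in WT TN replicate 1 and 6082 CPM in the library labelled mCre TN replicate 2, went with the 2 lowest shares of 3p. Spearman's rho between the sum and the log2 ratio of 3p over 5p was -0.88 over the 8 libraries, as a description; sum and ratio are made from the same counts.

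A mean ratio this close to equal arms was uncommon among the hairpins measured, though it averages libraries in which either arm led. Of the 88 hairpins with both arms past the filter, miR-142a ranked 17 by the summed CPM of its arms, and its log2 ratio of 3p over 5p averaged -0.30 ± 0.89 (SD, n = 8 libraries). Only 3 of the 88 had a mean closer to 0, miR-877 (0.06), miR-423 (0.08) and miR-223 (0.19), the last named after its value was seen. Among the 32 hairpins with a summed level of at least 1000 CPM, 1 had a mean closer to 0, miR-423, and the median distance from 0 was 5.39 on the log2 scale. The hairpins next in abundance were mostly one-sided. miR-29a (4680 CPM of 3p and 2.29 CPM of 5p), miR-140 (3524 CPM, log2 ratio 5.63), miR-30e (3811 CPM, 2.09), miR-139 (4886 CPM, -2.21) and miR-1198 (2369 CPM, -10.6) each had a leading arm on average, and miR-30a (2024 CPM, -0.73) came closest to miR-142a. The spread of the miR-142a ratio between libraries was not large for the table: 21 of the 32 hairpins had a larger SD, with a median of 0.99.

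**Figure D3:**
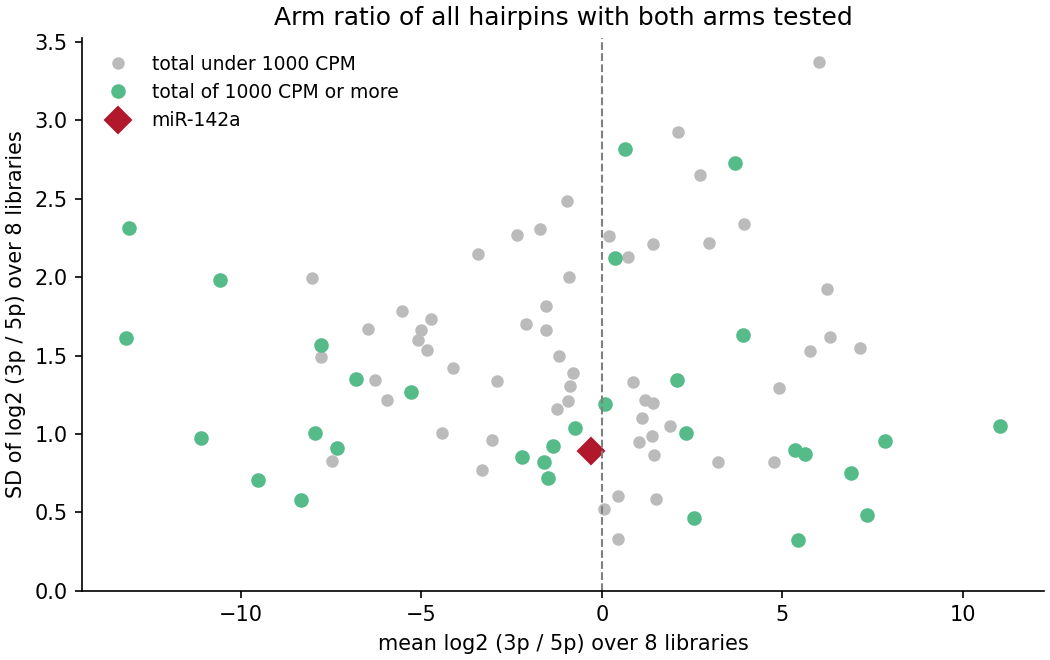
Mean over 8 libraries of the log2 ratio of 3p over 5p counts (x) against its SD over the same libraries (y) for the 88 hairpins with both arms tested; green points have a summed level of at least 1000 CPM, grey points less, and the red diamond is miR-142a. miR-142a lies near 0 on the x axis, at -0.30, with an SD of 0.89 that is below the median of 0.99 of the more abundant hairpins.

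MP against TN asks how memory-phenotype cells differ from naive cells. Over both genotypes miR-142a-5p averaged 1448 ± 907.1 CPM in MP and 3201 ± 2540 CPM in TN, and miR-142a-3p 1299 ± 590.6 CPM in MP and 1604 ± 749.4 CPM in TN (SD, n = 4 each). Both arms overlapped between the subsets, where 4.45% of the miRNAs tested were lower in every MP library. The log2 fold change of MP over TN was -1.39 ± 0.79 for the 5p arm (SE; edgeR adjusted p = 0.545) and -0.40 ± 0.46 for the 3p arm (edgeR adjusted p = 0.791), so neither passed, in a comparison where 2.36% of the 382 miRNAs did. DESeq2 called 28 miRNAs, neither arm among them. Without the library labelled WT TN replicate 2, the 5p arm fell by 1.97 on the log2 scale and passed (edgeR adjusted p = 0.0264), with 9.38% of miRNAs called. Without both TN replicate 2 libraries it fell by 1.45 (edgeR adjusted p = 0.0154), with 11.3% called.

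Within mCre both arms were lower in both MP libraries than in both TN libraries, as were 35.6% of the miRNAs tested. The lymphocyte pair was lower in mCre MP as well (39160 and 62060 CPM) than in mCre TN (104700 and 159000 CPM). So was the myeloid pair, near the floor (1.40 and 2.94 CPM in mCre MP, 7.26 and 10.3 CPM in mCre TN). The erythroid sum was higher in mCre MP (138.3 and 89.5 CPM) than in mCre TN (43.6 and 75.6 CPM). The epithelial sum was also higher in mCre MP (1488 and 1868 CPM) than in mCre TN (1486 and 724.5 CPM), though the replicate 1 values were nearly equal. The endothelial and stromal sums overlapped. The part of these markers in the result was not tested. The 5p arm averaged 669.8 ± 151.8 CPM in mCre MP and 3219 ± 2287 CPM in mCre TN, a log2 fold change of -2.26 ± 1.04 (SE; edgeR adjusted p = 0.231). The 3p arm averaged 824.4 ± 291.8 CPM in mCre MP and 1409 ± 230.4 CPM in mCre TN, a change of -0.77 ± 0.63 (SE; edgeR adjusted p = 0.443). edgeR called 0% of miRNAs here, with an unadjusted p under 0.05 for 82; by DESeq2 44 passed, neither arm among them (adjusted p = 0.0676 for 5p and 0.407 for 3p by DESeq2). With all 8 libraries and no filter on low counts the 5p arm passed, at -2.41 (edgeR adjusted p = 0.0451, 2.74% called). Its change was -2.36 with WT TN replicate 1 removed and -2.27 when the library labelled WT TN replicate 2 was left out. Neither library is in this contrast, and the change hardly moved. The SE of 1.04 fell to 0.54 and 0.53, in a test whose spread is shared by all 4 groups. No call is given for these fits, which left a lone library in WT TN. Removing a library of the contrast itself moved the 5p change more. It was -2.92 with mCre TN replicate 1 removed and -1.39 with the library labelled mCre TN replicate 2 removed. With mCre MP replicate 1 or 2 removed it was -1.97 or -2.57. Without both TN replicate 2 libraries the 5p change was -1.39, again with no call given.

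Within WT both arms overlapped between MP and TN, where 13.4% of miRNAs were lower in both MP libraries. The 3p arm averaged 1773 ± 246.9 CPM in WT MP and 1800 ± 1216 CPM in WT TN, a log2 change of -0.02 ± 0.63 (edgeR SE; adjusted p = 0.994). The 5p arm averaged 2226 ± 157.1 CPM in WT MP and 3184 ± 3758 CPM in WT TN, a change of -0.52 ± 1.00 (SE; edgeR adjusted p = 0.891). The WT TN libraries lay on either side of the WT MP pair for both arms, and which one is kept sets the sign. With WT TN replicate 1 left out the 5p change was 2.11, and with the library labelled WT TN replicate 2 left out it was -1.48. For the 3p arm these values were 0.95 and -0.67. edgeR called 0% of miRNAs in this comparison, with 31 at an unadjusted p under 0.05; DESeq2 made 12 calls that held neither arm.

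mCre against WT asks what the genotype changes. Within MP, both arms were lower in both mCre libraries than in both WT libraries, as were 37.4% of the miRNAs tested. Markers of cell types differed between the same libraries. The lymphocyte pair summed to 39160 and 62060 CPM in mCre MP and to 97110 and 101600 CPM in WT MP. The myeloid pair, near the floor, summed to 1.40 and 2.94 CPM in mCre MP and to 13.7 and 10.7 CPM in WT MP. The epithelial sum and the endothelial and stromal sum were lower in mCre MP too. The erythroid sum was higher in mCre MP (138.3 and 89.5 CPM) than in WT MP (81.6 and 75.25 CPM). The part of these markers in the result was not tested. The 5p arm averaged 669.8 ± 151.8 CPM in mCre MP and 2226 ± 157.1 CPM in WT MP, a log2 fold change of -1.73 ± 1.02 (SE; edgeR adjusted p = 0.453). The 3p arm averaged 824.4 ± 291.8 CPM in mCre MP and 1773 ± 246.9 CPM in WT MP, a change of -1.10 ± 0.63 (SE; edgeR adjusted p = 0.449). The groups thus lay apart by several of their own SDs, but each SD rests on only 2 libraries. Counting either direction, 64.7% of the miRNAs tested lacked overlap between these groups. The test uses a spread estimated over all 4 groups. Without both TN replicate 2 libraries, neither of them in this contrast, the 5p change was -1.76 with an SE of 0.41. The change thus hardly moved from -1.73, while the SE fell from 1.02. A lone library was left in each TN group, so the spread between libraries came from the MP groups only and no call is given. edgeR called 0% of miRNAs with all 8 libraries (41 at an unadjusted p under 0.05), and 0 passed by DESeq2.

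Within TN the 5p arm averaged 3219 ± 2287 CPM in mCre and 3184 ± 3758 CPM in WT, and the 3p arm 1409 ± 230.4 CPM in mCre and 1800 ± 1216 CPM in WT (SD, n = 2 each). Both overlapped, where 6.81% of miRNAs were lower in both mCre libraries. Their log2 fold changes were 0.02 ± 0.99 (edgeR adjusted p = 0.998) and -0.35 ± 0.63 (edgeR adjusted p = 0.957), both inside the spread of the WT libraries. The 5p change was 2.63 without WT TN replicate 1 and -1.02 without the library labelled mCre TN replicate 2. edgeR called 0% of miRNAs in TN (12 at an unadjusted p under 0.05), and 0 passed by DESeq2. Over both subsets the change was -0.86 ± 0.78 for 5p and -0.73 ± 0.46 for 3p (SE; edgeR adjusted p = 0.992 for both), with overlap between the genotypes (0.524% of miRNAs were lower in every mCre library) and 0% of miRNAs called (5 at an unadjusted p under 0.05, and 0 by DESeq2). Without both TN replicate 2 libraries the 5p arm fell by 1.80 over both subsets (edgeR adjusted p = 0.0149), with 6.24% called. The genotype effect in MP minus that in TN was -1.75 ± 1.42 for 5p (edgeR adjusted p = 0.513) and -0.75 ± 0.89 for 3p (edgeR adjusted p = 0.700), so it was not shown to differ between subsets; edgeR called 0% of miRNAs there, with 54 at an unadjusted p under 0.05, while 16 passed by DESeq2, neither arm among them. For 5p this difference was -4.46 without WT TN replicate 1 and 0.12 without both TN replicate 2 libraries. Both fits left a lone library in WT TN, so no call is given for them. The result above is that of all 8 libraries.

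**Figure D4:**
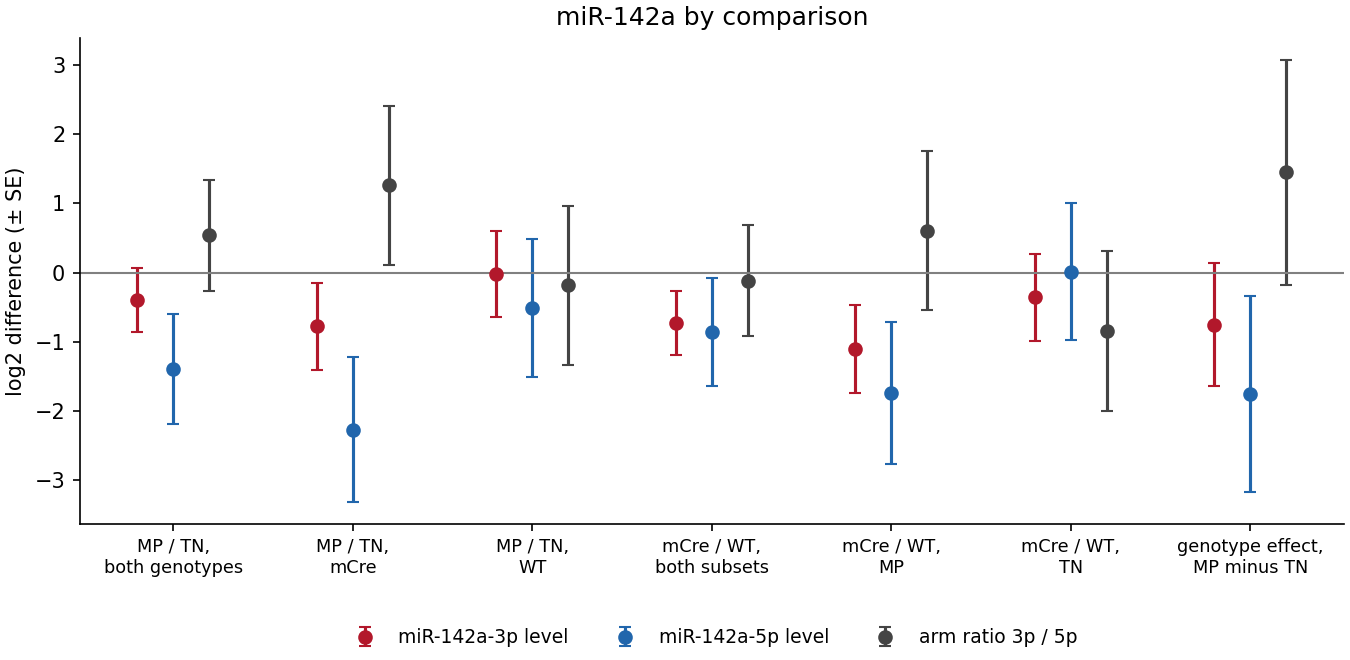
Log2 differences (± SE) of the 3p level (red), the 5p level (blue) and the ratio of 3p over 5p (dark grey) in each comparison, from all 8 libraries; the last column is the genotype effect in MP minus that in TN. None of the 21 values passed at an adjusted p under 0.05, and the 5p level in mCre MP against mCre TN, at -2.26, lies farthest from 0.

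The arm ratio was tested in the same comparisons with limma over the 88 hairpins, of which 0% passed in every comparison; unadjusted p was under 0.05 for 0 to 15 hairpins. On the log2 scale the ratio of 3p over 5p averaged -0.03 ± 0.41 in the 4 MP libraries and -0.57 ± 1.23 in the 4 TN libraries (SD), which overlapped; 2.27% of hairpins did not. The difference of 0.54 had a 95% interval of -1.27 to 2.35 (limma adjusted p = 0.969; exact two-sided permutation p = 0.457, where 4 against 4 libraries cannot go below 0.0286). It averaged -0.36 ± 1.08 in mCre and -0.24 ± 0.83 in WT, again with overlap (1.14% of hairpins had none), a difference of -0.12 with an interval of -1.93 to 1.69 (limma adjusted p = 0.954; exact two-sided permutation p = 0.886). Adjusted over these 2 permutation tests, both p-values were 0.886. The genotype difference turned to 0.42 without the library labelled WT TN replicate 2 and to 0.41 without the library labelled mCre TN replicate 2.

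By subset and genotype, the ratio did not overlap in 2 pairs of groups. It was higher in both mCre MP libraries (0.14 and 0.41) than in both WT MP libraries (-0.12 and -0.55), a difference of 0.60 with a 95% interval of -1.97 to 3.17 (limma adjusted p = 0.798); 65.9% of hairpins lacked overlap in that comparison. It was higher too in mCre MP than in mCre TN (-0.03 and -1.96), by 1.26 with an interval of -1.31 to 3.83 (limma adjusted p = 0.558), where 60.2% of hairpins lacked overlap. That difference was 0.30 without the library labelled mCre TN replicate 2. In WT MP and TN overlapped (27.3% of hairpins did not), and their difference was -0.18 (-2.75 to 2.39, limma adjusted p = 0.982), and it was 0.80 without the library labelled WT TN replicate 2. In TN mCre and WT overlapped as well (17% of hairpins did not), and their difference was -0.84 (-3.41 to 1.73, limma adjusted p = 0.882). It turned to 0.12 without the library labelled mCre TN replicate 2 and to 0.14 without the library labelled WT TN replicate 2. All 4 intervals hold 0 and span several log2 units.

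The genes whose level followed the arms most closely were taken over the 382 tested miRNAs and the 8 libraries, as a description. For miR-142a-3p the 5 highest Spearman correlations of log2 CPM were those of miR-106a-5p (rho 1.00, 6.36 to 175.0 CPM), miR-20a-5p (0.98, 87.9 to 2080 CPM), miR-20b-5p (0.98), miR-340-5p (0.98) and miR-17-5p (0.95). Apart from miR-340-5p these belong to the miR-17 family, whose near-identical members can share reads in such counting. For miR-142a-5p they were miR-331-3p (1.00, at no more than 6.43 CPM), miR-106b-5p (0.98), miR-15b-5p (0.98), miR-30e-5p (0.98, 253.0 to 3590 CPM) and miR-378b (0.98). The partner arms correlated with each other at 0.81, which ranked 31 for the 3p arm and 59 for the 5p arm. The lowest values were -0.98 for miR-7058-5p, miR-25-5p and miR-148a-3p with the 3p arm, and -0.98, -0.98 and -0.95 for miR-3064-5p, miR-342-5p and miR-1981-5p with the 5p arm. All points share the libraries' composition, including the let-7 share given above.

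Other miRNAs of low GC content moved with the arms in part. The 24 other tested miRNAs with a GC content of at most 35%, a limit set after seeing the data, had a median log2 deviation from their own means of -0.95 in mCre MP replicate 1 and -0.98 in the library labelled WT TN replicate 2, where miR-142a-5p deviated by -1.54 and -1.64 and miR-142a-3p by -1.10 and -0.50. In mCre MP replicate 2 that median was 0.00 while the 5p arm lay at -1.07 and the 3p arm at -0.37. In the other 5 libraries the median lay between -0.07 and 0.34. The 5p arm lay outside the quartiles of these miRNAs in mCre MP replicate 2, in both TN replicate 2 libraries and in WT TN replicate 1. The 83 tested miRNAs with a GC content of at least 55% had medians of 0.43 and 0.18 in mCre MP. Their median was 0.04 in the library labelled WT TN replicate 2 and -0.41 to 0.21 in the other 5. Weighted by counts, GC content was 39.5% and 39.2% in mCre MP and 39.4% in the library labelled WT TN replicate 2. In the other 5 it was 40.2% to 40.7%. With the GC trend of each library removed, an alternative added after seeing the data, the 5p change in mCre MP against WT MP was -0.79 and the 3p change -0.27. In mCre MP against mCre TN they were -1.46 and -0.14. The part of base composition in these results was not tested further.

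**Figure D5:**
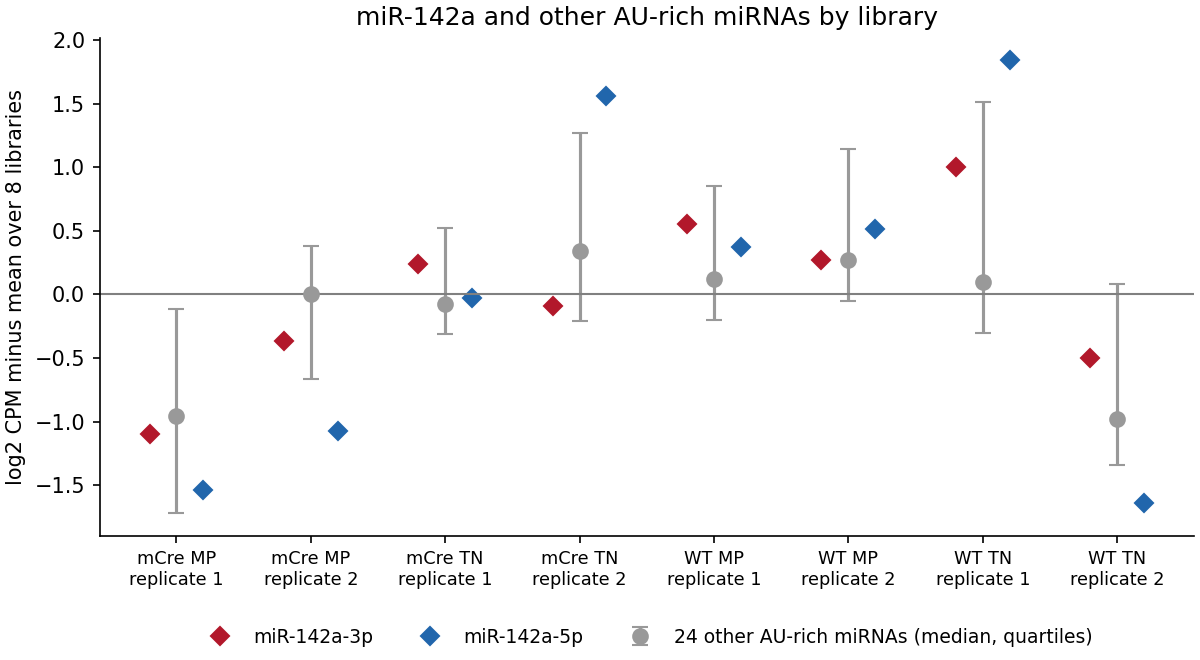
Deviation of log2 CPM from the mean over 8 libraries for miR-142a-3p (red), miR-142a-5p (blue) and the median of 24 other tested miRNAs with a GC content of at most 35% (grey, bars are quartiles). The 5p arm runs from -1.64 in the library labelled WT TN replicate 2 to 1.84 in WT TN replicate 1, and the grey median from -0.98 to 0.34.

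Other miRNAs of blood cells gave a setting for the arms. A list of 15 held miRNAs abundant in or typical of lymphocytes or myeloid cells, among them miR-150-5p, miR-155-5p and miR-223-3p, and all of them were tested. The list was chosen with earlier results of these data known and holds miR-29a-3p. Its share of calls beside that of all miRNAs is therefore a description only. For MP against TN over both genotypes 2 of the 15 rose and 1 fell past the threshold, where 2.36% of all 382 miRNAs were called: miR-146a-5p, a brake on NF-kB signalling, at 2.61 ± 0.37, miR-21a-5p, induced on activation, at 1.87 ± 0.36, and miR-181a-5p, which tunes T cell receptor sensitivity, at -2.98 ± 0.61 (log2 change and SE; adjusted p = 0.0137, 0.0392 and 0.0423 by edgeR). miR-139-5p, with the next smallest p, had a log2 difference of 1.92 (edgeR adjusted p = 0.195). The list's median was -0.24, against -0.04 over all 382. For MP against TN within each genotype, in mCre 10 of the 15 were lower (median -1.05, against -0.18 over all), and in WT 13 were higher (median 0.90, against 0.05 over all). edgeR called 0 of the 15 in either genotype. For mCre against WT in MP, 14 of the 15 were lower and 0 passed by edgeR or by DESeq2, with a median of -0.95 against -0.23 over all; 57.9% of the 382 miRNAs were lower there. The 4 of smallest p in the list had log2 differences of -3.81 ± 1.29 (miR-223-3p), -1.73 ± 0.73 (miR-342-3p), -1.0 ± 0.44 (miR-26a-5p) and -2.66 ± 1.18 (miR-29a-3p), each with an edgeR adjusted p of 0.411. The miR-142a arms, at -1.10 for 3p and -1.73 for 5p, lay among these values. These 4 were picked by their p, and both arms lay below the list's median of -0.95. For mCre against WT in TN, 12 of the 15 were higher, with a median of 0.50 against 0.02 over all, and 48.2% of the 382 miRNAs were lower; 0 of the 15 passed by edgeR or by DESeq2.

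The opposite strand gave almost no counts. miR-142b was listed with 2 and 2 counts in mCre MP, 10 and 7 in mCre TN, 10 and 7 in WT MP, and 28.5 and 0.5 in WT TN. Its highest value, in WT TN replicate 1, stood beside 31746 counts of both miR-142a arms in the same library, and it did not pass the filter on low counts.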

How the data were processed

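Small RNA libraries of sorted mouse CD8+ T cells were prepared by ligation with size selection of short inserts, per the labels' protocols. The authors deposited expected counts for 2128 rows of mature miRNAs, some of them fractions. The genome build was mm10 per the submitters' processing notes, and the sources used here name no aligner, counter or miRNA annotation. Rows of one name were summed and rounded to whole counts (0.5 to the even number).

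filterByExpr (minimum count 10, minimum total 15) left 382 miRNAs. Levels were tested with the quasi-likelihood F test of edgeR 4.0.16 (R 4.3.3, TMM factors, robust) with Benjamini-Hochberg adjustment over all 382 at 0.05, in a fit of 4 groups with 4 residual degrees of freedom, or, over both genotypes or subsets, an additive fit with 5. The SE is the absolute log2 change over the square root of F. Arm ratios, log2 of (3p + 0.5)/(5p + 0.5), were tested with limma 3.58.1 over 88 hairpins paired by name, and by exact permutation (scipy 1.17.1). Log2 CPM used a prior count of 2. Folding used RNAfold 2.7.2; sequences are RefSeq's (GRCm38.p6) and the host gene GENCODE's (release M21).

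Alternatives were RLE or total count scaling, no filter, DESeq2 1.42.0, a replicate block, the largest row of each name, a pseudocount of 5, values not rounded, each library left out, and both TN replicate 2 libraries left out. Removing a GC trend and rounding 0.5 up were added after seeing the data. The members and lists were chosen with earlier results of these data known. The named miRNAs are the arms, the antisense product, seed sharers, the 5 nearest and 3 farthest in pattern, and hairpins next in abundance or arm ratio. Totals of 1936597 to 5230976 counts set the precision; Wilson intervals at 95% cover counting error only.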

Additional observations from a re-analysis of the deposited data

How the results depend on the processing

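With all 8 libraries neither arm passed in any comparison under RLE factors, total count scaling, DESeq2, the largest row of each name, 0.5 rounded up or the GC trend removed. The 5p level of mCre against WT in TN, 0.02 with TMM, turned to -0.0183 with RLE factors, -0.0182 with DESeq2, -0.22 with total counts, -0.11 with the largest row and -0.0353 with the GC trend removed. The 3p level of MP against TN in WT, -0.02, turned to 0.0023 with 0.5 rounded up and to 0.0458 with the replicate block, which changed no call of either arm. Deviations of same-numbered libraries correlated from -0.32 to 0.41 between groups, and the numbers were not taken to pair samples. With 2 libraries per group, and TN replicate 2 libraries that ran against their labels, these values cannot decide whether numbers pair samples. The 3p difference of the genotype effect turned to 0.32 with the GC trend removed. For MP against TN over both genotypes, edgeR called 9 miRNAs, DESeq2 28 and the block 2. Without the filter, 5p in mCre MP against TN passed at -2.41.

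Without both TN replicate 2 libraries, 5p passed at -1.45 (MP against TN, both genotypes) and -1.80 (mCre against WT, both subsets). In mCre against WT in MP, which holds neither library, its change was -1.76. No call is given there, since the fit of 4 groups kept a lone library in each TN group. The passes at -1.45 and -1.80 came from the additive fit. The TN genotype change of 5p turned to -1.88 and its difference of genotype effects to 0.12. The ratio turned to 0.80 (MP against TN in WT), 0.77 (mCre against WT, both subsets, also by permutation), 1.11 (in TN) and -0.50 (difference of genotype effects). The cause of these changes was not tested.

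Leaving out 1 library at a time, a lone library is assumed to vary like the other groups. The 3p level ranged from -0.76 to -0.22 (MP against TN, both genotypes), -1.29 to -0.42 (in mCre), -0.67 to 0.95 (in WT), -1.003 to -0.54 (mCre against WT, both subsets), -1.54 to -0.73 (in MP), -0.91 to 0.62 (in TN) and -1.83 to -0.15 (difference of genotype effects). In the same order the 5p level ranged from -1.97 to -0.95, -2.92 to -1.39, -1.48 to 2.11, -1.46 to -0.53, -1.997 to -1.45, -1.02 to 2.63 and -4.46 to -0.74. The ratio ranged from 0.0094 to 1.08, 0.30 to 2.23, -1.17 to 0.80, -0.37 to 0.42, 0.39 to 0.82, -1.83 to 0.14 and 0.46 to 2.43, and by plain means from 0.08 to 1.01 (MP against TN) and -0.42 to 0.41 (mCre against WT).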

Other observations

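Of the 32 hairpins with a summed level of at least 1000 CPM, 7 had a larger arm that differed between libraries: miR-142a, miR-423, miR-342, miR-30e, miR-30a, miR-151 and miR-361. These other hairpins were chosen after their values were seen. miR-342, a hairpin abundant in lymphocytes, had the widest swing, with log2 ratios of 3p over 5p of -2.28 and -0.99 in mCre MP, 0.54 and 6.48 in mCre TN, 0.74 and 1.58 in WT MP, and 1.48 and -2.34 in WT TN. Its 3p arm led most in the library labelled mCre TN replicate 2, where miR-142a-5p led most, and its 5p arm led in the 3 libraries where miR-142a-3p led. miR-423 also leaned to its 5p arm in those 3 libraries, at -1.72, -0.96 and -1.13, and to its 3p arm in the other 5, at 0.35 to 1.58. miR-30e leaned furthest to its 3p arm in the same 3, at 3.51, 3.03 and 3.49, against -0.61 to 2.20 in the other 5. The libraries that stood apart in miR-142 thus stood apart in the arm balance of other hairpins too, in either direction.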
